A study of Mus musculus with 7 samples.

Results

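The genes described here are 7 genes that mark the mesothelium: Msln, Upk3b, Upk1b, Lrrn4, Wt1, Muc16 and Krt19. They were listed by name, and all 7 were found among the 27179 Entrez genes of the deposited expression table. RNA sequencing was done on 7 mouse libraries of 7 groups, with 1 library in each. All groups came from Wnt1-Cre;R26R-tdT mice aged 1 month, in which Cre driven by the Wnt1 promoter turns on the red fluorescent protein tdTomato (tdT) in the neural crest lineage. RNA of about 50000 cells a group was pooled in equal parts from 3 mice, 2 female and 1 male, so no spread between animals can be read. The adipose primary cells were sorted tdT-positive cells of posterior subcutaneous fat pads, and the bowel primary cells were sorted tdT-positive cells of the smooth muscle and myenteric plexus layer of the small bowel. Bowel neurospheres M1 grew for 10 days from cells that had been sorted first. The spheroid groups were grown from unsorted bowel cells for 10 days and then split by sorting into tdT-positive and tdT-negative cells. Bowel neurospheres M2 and adipose neurospheres were grown from such mixed spheroids, sorted as tdT-positive and kept for 10 days more. The growth medium held heparin, EGF and basic FGF.

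The mesothelium is the thin sheet of mesoderm-derived cells that covers the gut, the other abdominal organs and the wall of the body cavities. It lines the outer face of the bowel muscle layer, whereas subcutaneous fat has no mesothelial cover. Its cells keep a surface coat of mucins, carry keratins like an epithelium, and hold the transcription factor Wt1, which is also needed for the formation of the kidney and gonads. When mesothelial cells are injured or cultured they can lose keratins and surface proteins and take on fibroblast features, a process called mesothelial-to-mesenchymal transition. The neural crest, the lineage that tdT marks here, forms the neurons and glia of the gut and is not the source of the mesothelium.

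The promoters of members that moved together are shown first, since 6 of the 7 members had their highest level in the same library, the bowel primary cells. The RefSeq promoter table used (GRCm38.p6) held an entry for 3 of the 7 members: Upk3b, Lrrn4 and Muc16. Each sequence holds the 250 bases before the start that this table gives for the gene, 5′ to 3′ on the gene's strand, in lower case. That start is the outermost RefSeq start for Upk3b. For Lrrn4 it is base 132880862, which lies 13148 bases inside the outermost RefSeq start and 29 bases from the GENCODE M21 start. For Muc16 it is base 18674603, 218 bases inside the outermost RefSeq start, so that the Lrrn4 window lies within the RefSeq gene span and the Muc16 window overlaps it. Capitals mark matches to the TEAD motif GGAATG or its reverse complement CATTCC. The promoters lie at chr5:136038246-136038495 (plus strand, Upk3b), chr2:132880863-132881112 (minus strand, Lrrn4) and chr9:18674604-18674853 (minus strand, Muc16).
Upk3b: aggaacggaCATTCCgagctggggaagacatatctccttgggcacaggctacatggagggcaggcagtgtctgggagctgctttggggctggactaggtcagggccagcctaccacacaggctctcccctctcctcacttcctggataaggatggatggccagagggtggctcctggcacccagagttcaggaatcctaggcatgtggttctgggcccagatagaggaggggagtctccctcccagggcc
Lrrn4: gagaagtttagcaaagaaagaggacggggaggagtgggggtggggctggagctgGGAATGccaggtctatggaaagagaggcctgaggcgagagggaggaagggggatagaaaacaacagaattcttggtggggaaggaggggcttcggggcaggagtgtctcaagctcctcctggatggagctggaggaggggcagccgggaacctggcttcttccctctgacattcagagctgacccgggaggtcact
Muc16: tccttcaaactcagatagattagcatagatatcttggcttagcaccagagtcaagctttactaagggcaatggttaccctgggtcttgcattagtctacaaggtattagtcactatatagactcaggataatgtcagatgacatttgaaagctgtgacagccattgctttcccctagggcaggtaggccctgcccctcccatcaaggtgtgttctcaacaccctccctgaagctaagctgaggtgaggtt
Of 4 motifs searched on both strands, the TEAD motif was the 1 that matched. It lay 241 to 236 bases before the start in the table for Upk3b, as CATTCC, and 196 to 191 bases before the start in the table for Lrrn4, as GGAATG. It is held by 12.6% of the 32851 promoters of the same length in the table. The WT1 and EGR core GCGGGGGCG (2.57% of promoters), the GC box GGGCGG (32.7%) and the TATA box TATAAA (12.4%) had no match in these 3 windows. The Muc16 window held none of the 4 motifs. Bases G and C made up 60.8% of the Upk3b window, 59.2% of that of Lrrn4 and 46.4% of that of Muc16, beside a median of 52.4% over all promoters. A match describes letters and not a bound site.

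The libraries held 51885106 to 65301500 reads assigned to genes. Levels are given as CPM, in which the reads of a gene are scaled by the total of its library. Bowel primary cells stood apart from the other libraries in what else they held: 10 pancreatic acinar genes made up 5.40% of the reads there and at most 6.05 CPM elsewhere. The summed level of 8 smooth muscle genes was 33034 CPM there and at most 699 CPM elsewhere, although the sort was for neural crest cells. 7 glial and crest genes summed to 931 CPM in that library, to 23.3 CPM in the tdT-negative cells and to between 2307 and 4642 CPM in the other 5 libraries. All intervals below are 95% counting intervals, which cover counting error only, and no difference has a replicate check. These intervals treat reads as independent. Among members at low levels, counts of 2 reads were frequent and counts of a single read were absent. Whether both reads of a fragment were counted was not tested, and if they were, the intervals are too narrow.

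**Figure D1:**
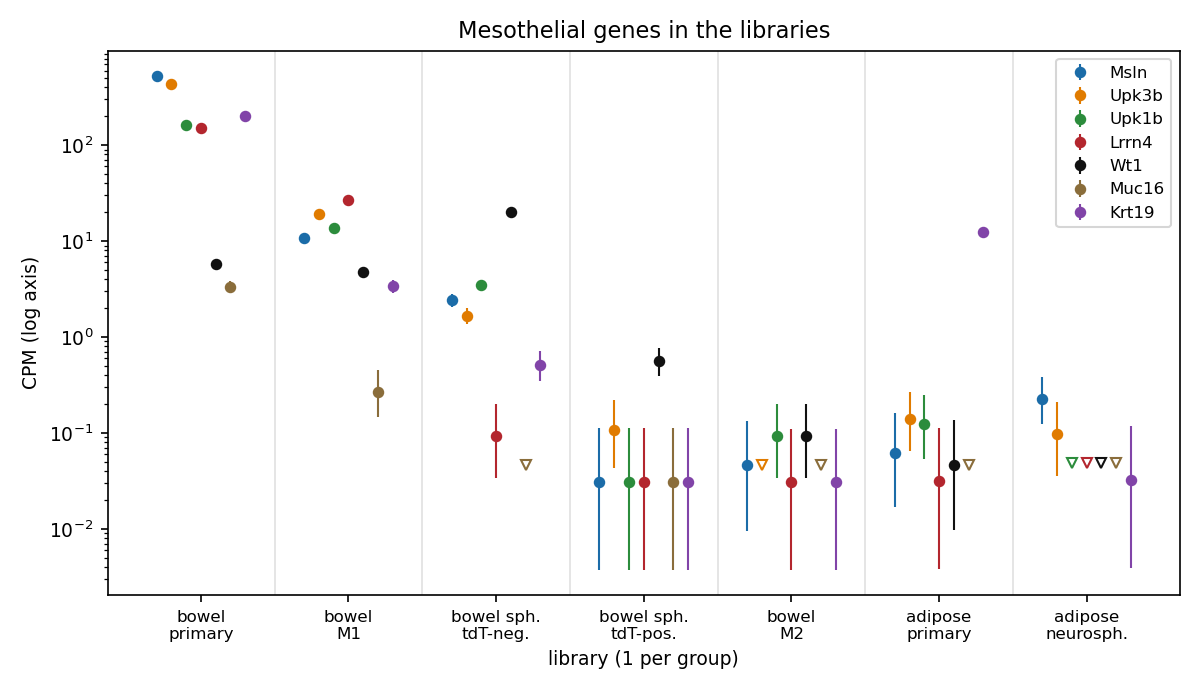
Levels of the 7 mesothelial genes in each of the 7 libraries, as CPM on a log axis. Points are single libraries, bars are 95% Poisson counting intervals, and open triangles stand for 0 reads, drawn at the CPM of 3 reads. For 6 genes bowel primary cells are highest, and for Wt1 the tdT-negative cells are highest at 20.0 CPM.

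The library of fresh tdT-positive bowel cells held reads of the full mesothelial set, with all 7 members at 1 CPM or more. The members summed to 85608 reads, or 0.148% of that library (exact binomial interval 0.147 to 0.149%). By contrast they summed to 820 reads in adipose primary cells, 4097 in neurospheres M1, 1821 in tdT-negative cells, 53 in tdT-positive spheroid cells, 22 in adipose neurospheres and 19 in neurospheres M2. Members at 1 CPM or more numbered 6 in M1, 4 in tdT-negative cells, 1 in adipose primary cells and 0 in the 3 remaining libraries. In a sum over many cells, fewer mesothelial cells and less mesothelial RNA per cell cannot be told apart. Whether the reads in the bowel primary library came from cells of the crest lineage was not tested.

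Msln and Muc16 code for a ligand pair of the cell surface: mesothelin, held by a lipid anchor, and the very large membrane mucin that binds it, known as CA125. Msln (Entrez 56047) lies on chromosome 17 at 25748613 to 25754378 of GRCm38, minus strand, with 15 exon blocks. Its level was 527 CPM in bowel primary cells, 10.9 in M1, 2.41 in tdT-negative cells, 0.227 in adipose neurospheres, 0.0625 in adipose primary cells, 0.0459 in M2 and 0.0310 in tdT-positive spheroid cells. The counting intervals of the first 4 were all apart, and from adipose neurospheres downwards each overlapped the next. Muc16 (Entrez 73732, chromosome 9, 18495445 to 18674821, minus strand, 86 exon blocks) had the lowest level per length in bowel primary cells. It had 3.31 CPM in bowel primary cells, 0.270 CPM (14 reads) in M1 and 0.0310 CPM (2 reads) in tdT-positive spheroid cells, with 0 reads in the other 4 libraries. There the level of 3 reads is 0.0459 to 0.0487 CPM, and the upper interval limits of 0 reads were 0.0565 to 0.0599 CPM. Per length, Msln RNA stood far above Muc16 RNA in bowel primary cells, with 172 and 0.126 CPM per kilobase of exon. The Muc16 value is divided by 26.35 kilobases of exon, and how evenly so long a transcript was read was not tested.

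Upk3b and Upk1b code for uroplakins, membrane proteins best known from the plaques that seal the bladder surface, and Upk1b is a tetraspanin. Upk3b (Entrez 100647, chromosome 5, 136038496 to 136044993, plus strand, 6 exon blocks) had 435 CPM in bowel primary cells, 19.0 in M1, 1.65 in tdT-negative cells, 0.141 in adipose primary cells, 0.108 in tdT-positive spheroid cells, 0.0974 in adipose neurospheres and 0 reads in M2. Upk1b (Entrez 22268, chromosome 16, 38773182 to 38800203, minus strand, 8 exon blocks) had 162 CPM in bowel primary cells, 13.7 in M1, 3.45 in tdT-negative cells, 0.125 in adipose primary cells, 0.0919 in M2, 0.0310 in tdT-positive spheroid cells and 0 reads in adipose neurospheres. In both genes bowel primary, M1 and tdT-negative cells stood apart in that order and from the rest, and below them each library overlapped the next in its interval. The bladder partners of these proteins were near 0: Upk1a, Upk2 and Upk3a had 0.0693, 0.0347 and 0.0347 CPM in bowel primary cells. Upk3bl, the near relative of Upk3b that could share reads with it, had at most 0.0347 CPM in any library.

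Lrrn4 codes for a membrane protein with leucine-rich repeats that is found in neurons as well as in mesothelium. The gene (Entrez 320974, chromosome 2, 132866686 to 132894010, minus strand, 5 exon blocks) had 150.3 CPM in bowel primary cells, 27.0 in M1, 0.0928 in tdT-negative cells, 0.0312 in adipose primary cells, 0.0310 in tdT-positive spheroid cells, 0.0306 in M2 and 0 reads in adipose neurospheres. Only bowel primary and M1 cells stood apart from the rest and from each other. Lrrn4 had the highest level per length of the members in M1, 7.27 CPM per kilobase of exon, while in tdT-negative cells it had 6 reads. Other genes of its family were spread in another way: Lrrn1 had 15.1 CPM in bowel primary cells and 28.0 in M1, and Lrrn2 had 79.9 and 97.6 CPM.

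Krt19 codes for a keratin of simple epithelia, which mesothelial cells share with gut, gland and duct linings. The gene (Entrez 16669, chromosome 11, 100140810 to 100145926, minus strand, 8 exon blocks) had 200.3 CPM in bowel primary cells, 12.4 in adipose primary cells, 3.39 in M1, 0.510 in tdT-negative cells, 0.0325 in adipose neurospheres, 0.0310 in tdT-positive spheroid cells and 0.0306 in M2. It was the sole member above 1 CPM in adipose primary cells, and the first 5 libraries of its order stood apart. Beside it in those adipose cells were Epcam (34.5 CPM) and Cdh1 (10.2 CPM), membrane proteins of epithelia, with 13.3 and 2.83 CPM in bowel primary cells. The 10 epithelial markers summed to 52.0 CPM in adipose primary cells, with Fabp2 and Cdx1 at 0 reads, to 38.7 CPM in bowel primary cells and to at most 2.71 CPM elsewhere. By the rule given below for ratios, 0 of the 9 measured epithelial markers were called higher and 4 lower (Fabp2, Elf3, Cldn7 and Cdx1) in adipose than in bowel primary cells, with a median log2 ratio of -1.67, beside 7.1% and 11.4% of all measured genes. Their part in the Krt19 level was not tested.

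Wt1 codes for the zinc finger transcription factor of the group and was the member with another order. The gene (Entrez 22431, chromosome 2, 105126529 to 105173614, plus strand, 10 exon blocks) had 20.0 CPM in tdT-negative cells (interval 19.0 to 21.2), 5.74 in bowel primary cells, 4.74 in M1, 0.557 in tdT-positive spheroid cells, 0.0919 in M2, 0.0469 in adipose primary cells and 0 reads in adipose neurospheres. The tdT-negative cells stood above all other libraries, and the intervals of bowel primary and M1 cells overlapped. Wt1os, a transcript of the opposite strand that starts next to Wt1, had 1.08 CPM in tdT-negative cells, 0.295 in bowel primary cells and 0.270 in M1. The exons of the 7 members overlapped those of no other gene in the GENCODE M21 annotation.

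Per length of exon the make-up of the mesothelial signal differed between the bowel libraries. In bowel primary cells Msln made up 32.9% of the members' summed CPM per kilobase, Upk3b 23.6%, Krt19 20.7%, Upk1b 14.8%, Lrrn4 7.74%, Wt1 0.177% and Muc16 0.0241%. In M1 the leading genes were Lrrn4 (28.7%), Upk1b (25.8%) and Upk3b (21.3%), with Msln at 14.0%, Krt19 at 7.21% and Wt1 at 3.02%. In tdT-negative cells Wt1 led with 50.2%, followed by Upk1b (25.6%), Msln (12.2%), Upk3b (7.28%), Krt19 (4.27%) and Lrrn4 (0.388%). The surface proteins and keratin thus led in fresh cells and the transcription factor in tdT-negative cells. In adipose primary cells Krt19 made up 98.0%.

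**Figure D2:**
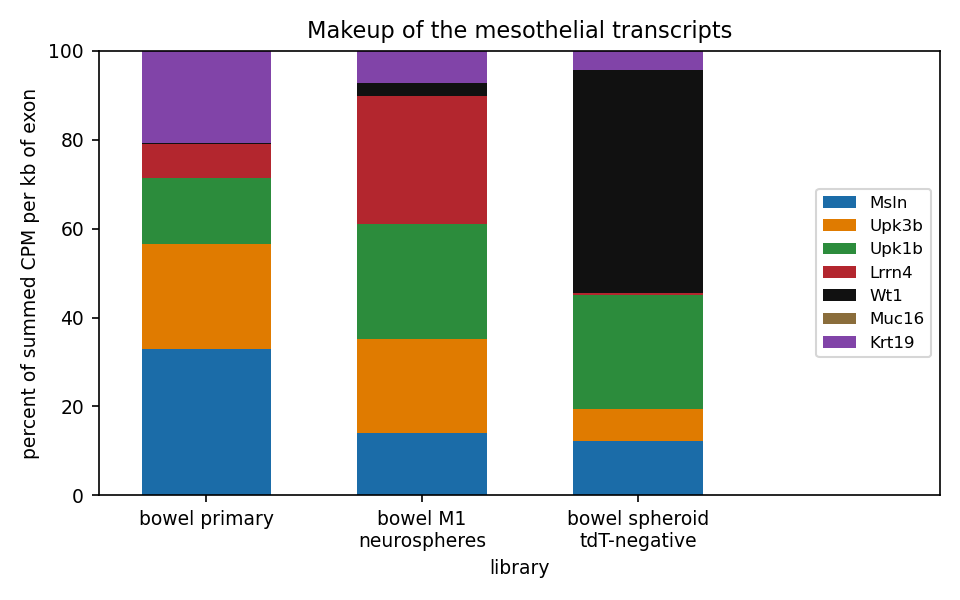
Share of each of the 7 genes in their summed CPM per kilobase of exon, in percent, in bowel primary cells, neurospheres M1 and tdT-negative spheroid cells (1 library each). Msln leads in bowel primary cells with 32.9%, Lrrn4 in M1 with 28.7% and Wt1 in tdT-negative cells with 50.2%.

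Adipose and bowel primary cells were compared to see how the tissues' fresh tdT-positive cells differ. Ratios were taken after scaling of the libraries by TMM, a trimmed mean that sets the bulk of genes level. A gene was called higher or lower where it differed by 4-fold or more with a counting interval wholly beyond 2-fold, among genes at 1 CPM or more in either library. All 7 members were called lower in adipose primary cells, where 11.4% of the 15585 measured genes were called lower and 7.1% higher. Their median log2 ratio was -10.05, and that of all measured genes 0.09. Msln was 8548-fold lower (interval 3338 to 31373, 4 reads in adipose cells), Upk3b 3139-fold (1653 to 6866, 9 reads) and Upk1b 1314-fold (666 to 3044, 8 reads). These surface genes thus had at most 9 reads each in the adipose library. Lrrn4 (2 reads) was 4875-fold lower (1349 to 40262) and Wt1 (3 reads) 124-fold lower (42.1 to 605). Muc16, with 0 reads, was 71.6-fold lower if held at 3 reads, and its interval began at 57.7-fold. Krt19 differed least, at 16.4-fold lower (15.2 to 17.6). Smooth muscle, acinar and macrophage marker sums were lower in adipose cells too (699, 3.72 and 515 CPM against 33034, 54014 and 1500 CPM). The neuron marker sum was lower as well (55.4 against 1182 CPM), and 1 of the 7 macrophage markers was called lower. Fibroblast and lymphocyte sums were higher in adipose cells (12107 and 349 CPM against 5174 and 24.1 CPM). Endothelial sums, and those of glial and crest markers, were higher too (242 and 3026 CPM against 172 and 931 CPM). The part of these cell types in the member ratios was not tested.

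Bowel neurospheres M1 were compared with bowel primary cells, both sorted before any culture. 6 of the 7 members were called lower in M1, beside 16.4% of the 15422 measured genes, and 0 higher, beside 6.59%. Their median log2 ratio was -4.02, and that of all measured genes -0.07. Krt19 was 81.2-fold lower (69.9 to 94.7) and Msln 66.8-fold lower (61.4 to 72.7). Upk3b was 31.4-fold lower (29.5 to 33.5), Muc16 16.9-fold lower (9.81 to 31.4), Upk1b 16.3-fold lower (15.1 to 17.6) and Lrrn4 7.65-fold lower (7.23 to 8.10). The members thus did not fall by 1 common factor: the interval of Lrrn4 lay apart from those of the other 5. Wt1 did not pass the rule, with a log2 ratio of -0.73 (-0.98 to -0.49). Scaling by total counts moved the median of all measured genes by 0.46 on the log2 scale and put Wt1 at -0.27. Smooth muscle markers summed to 256 CPM in M1 and macrophage markers to 124 CPM, beside 33034 and 1500 CPM in fresh cells. Their part in these ratios was not tested.

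The tdT-negative spheroid cells are the cells of a mixed bowel culture outside the neural crest lineage. The series holds no fresh tdT-negative library, so culture and sort fraction cannot be told apart in their comparison with bowel primary cells. Against bowel primary cells 6 members were called lower, beside 18% of the 15233 measured genes, and 0 higher, beside 9.3%. The median log2 ratio of the members was -7.69, and that of all measured genes -0.07. Lrrn4 was 1544-fold lower (709 to 4209), Krt19 374-fold lower (266 to 544) and Upk3b 251-fold lower (208 to 306). Msln was 208-fold lower (178 to 245) and Upk1b 44.8-fold lower (39.2 to 51.4). Muc16, with 0 reads, was 68.0-fold lower if held at 3 reads, and its interval began at 54.8-fold. These 6 are the genes of the surface coat, the uroplakins and the keratin. Wt1 stood on the other side, with 20.0 against 5.74 CPM and a log2 ratio of 1.87 (1.70 to 2.05), or 3.66-fold, which is under the 4-fold rule. Fibroblast markers summed to 23847 CPM in tdT-negative cells and to 5174 CPM in bowel primary cells, and their part in the Wt1 level was not tested.

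**Figure D3:**
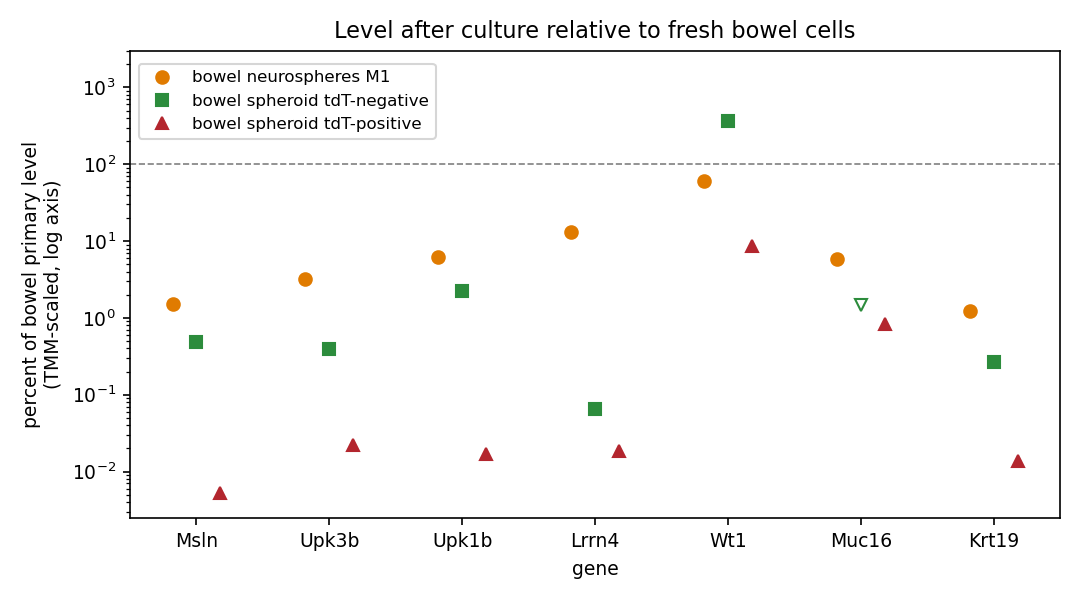
Level of each gene in 3 cultured bowel libraries as a percentage of its level in bowel primary cells (TMM-scaled, log axis), 1 point per library. The tdT-negative cells are also another sort fraction than the bowel primary cells. The dashed line marks 100%, and the open triangle marks Muc16, with 0 reads in tdT-negative cells, at the level of 3 reads. Wt1 lies highest in all 3 cultured libraries, at 366% in tdT-negative cells, 60.1% in M1 and 8.61% in tdT-positive spheroid cells.

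Sorting of the mixed spheroids set tdT-positive against tdT-negative cells of 1 culture. 4 of the 7 members were measured there, and all 4 were called lower in tdT-positive cells, beside 12.5% of the 13951 measured genes (6.64% were called higher). Their median log2 ratio was -5.41, and that of all measured genes 0.01. Wt1 was 42.5-fold lower (30.6 to 61.0), with 36 reads in tdT-positive and 1296 in tdT-negative cells. Upk3b (7 against 107 reads) was 18.1-fold lower (8.47 to 46.0), Msln (2 against 156 reads) 92.2-fold lower (25.1 to 768) and Upk1b (2 against 223 reads) 132-fold lower (36.0 to 1095). The 4 intervals shared the range between 36.0 and 46.0-fold, and the 4 ratios were not tested against each other. Lrrn4 (2 against 6 reads), Muc16 (2 against 0) and Krt19 (2 against 33) were under 1 CPM in both libraries. Glial and crest markers went the other way, with 4642 CPM in tdT-positive and 23.3 CPM in tdT-negative cells.

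The tdT-positive spheroid cells also stood far below fresh tdT-positive cells of the same tissue. All 7 members were called lower than in bowel primary cells, beside 20.4% of the 15232 measured genes (6.57% were called higher), with a median log2 ratio of -11.48 against -0.03 for all measured genes. Wt1 was the least lowered, 11.6-fold (8.22 to 16.9), and Upk3b was 4532-fold lower (2199 to 11275). The 5 others were left with 2 reads each: Msln was 19197-fold lower (5314 to 158519), for example. This comparison and those of M1, tdT-negative and adipose primary cells share the bowel primary library. As percentages of it, the median member stood at 5.93% in M1, 0.399% in tdT-negative cells and 0.0183% in tdT-positive spheroid cells. Over the 14690 genes at 1 CPM or more in bowel primary cells the medians were 90.2, 91.5 and 94.1%. Markers of other cell types stood at other levels: the medians in M1, tdT-negative and tdT-positive spheroid cells were 0.243, 0.447 and 0.188% for smooth muscle, 17.6, 507 and 7.68% for fibroblast, and 2.47, 0.946 and 0.727% for macrophage markers.

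After the second culture stage almost no reads of the members were left. In M2 against tdT-positive spheroid cells 0 members were measured, so 0 were called, beside 3.07% of 13432 genes called higher and 3.84% lower. Wt1 had 6 reads in M2 and 36 in tdT-positive cells, which is 6.56-fold lower (2.74 to 19.0) but under 1 CPM in both. In adipose neurospheres against adipose primary cells Krt19 alone was measured. It was called lower, beside 20.8% of 14773 genes (5.72% were called higher), at 423-fold lower (117 to 3497) with 2 against 794 reads. Between adipose neurospheres and M2, too, 0 members were measured, beside 5.33% of 13440 genes called higher and 8.69% lower. Msln had 14 reads in adipose neurospheres and 3 in M2.

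A wider list of 20 mesothelial genes, of which fibroblasts and other cells also express some, gave the same picture in part. In adipose against bowel primary cells 15 of 20 were called lower and 0 higher (median log2 ratio -4.35), beside 11.4% and 7.1% of all measured genes. In M1 against bowel primary cells 14 of 20 were called lower, beside 16.4% of all measured genes, and 0 higher (median -2.94), among them Dmkn (dermokine, -5.19), Krt7 (a keratin, -4.98) and Slpi (a protease inhibitor, -3.32). Bnc1, which codes for the zinc finger protein basonuclin 1, did not pass, at 12.3 CPM in M1 and 15.3 CPM in bowel primary cells (log2 ratio -0.77). Nor did Pdpn (podoplanin, -0.03) and Gata6 (a GATA transcription factor, 0.19). Also not called were Nkain4 (-1.92), Pkhd1l1 (-1.36) and Ildr2 (-1.50), while Tcf21, a transcription factor, was called lower (1.39 against 21.7 CPM, -4.38).

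In tdT-negative against bowel primary cells 3 of the 20 genes of the wider list were called higher and 10 lower (median log2 ratio -1.54), beside 9.3% and 18% of all measured genes. Higher were Pdpn (158 against 9.43 CPM, log2 ratio 4.13), Gata6 (39.2 against 8.89 CPM, 2.20) and Aldh1a2, the retinoic acid synthesis enzyme (597 against 141 CPM, 2.15). Lower were Krt7 (3 reads against 5401), Gpm6a (a membrane glycoprotein, 2.30 against 275 CPM, -6.82), Dmkn (-3.71), Krt8 (a keratin, -3.44), Tcf21 (-2.20) and 5 more. Bnc1 (29.8 against 15.3 CPM, log2 ratio 1.03), Slpi (2265 against 739 CPM, 1.68) and the keratin Krt18 (17.2 against 32.5 CPM, -0.85) did not pass. Genes called lower thus included keratins, membrane proteins and a transcription factor, and those called higher an enzyme, a GATA factor and the surface protein podoplanin. Between the sorted spheroid fractions 17 of 18 measured genes of the list were lower in tdT-positive cells, beside 12.5% of all measured genes (median log2 ratio -5.65, and -5.39 with Cdh3 and Tcf21, at 0 reads, held at 3 reads). Nkain4 was the exception and higher in tdT-positive cells, at 55.1 against 2.91 CPM (3.99).

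**Figure D4:**
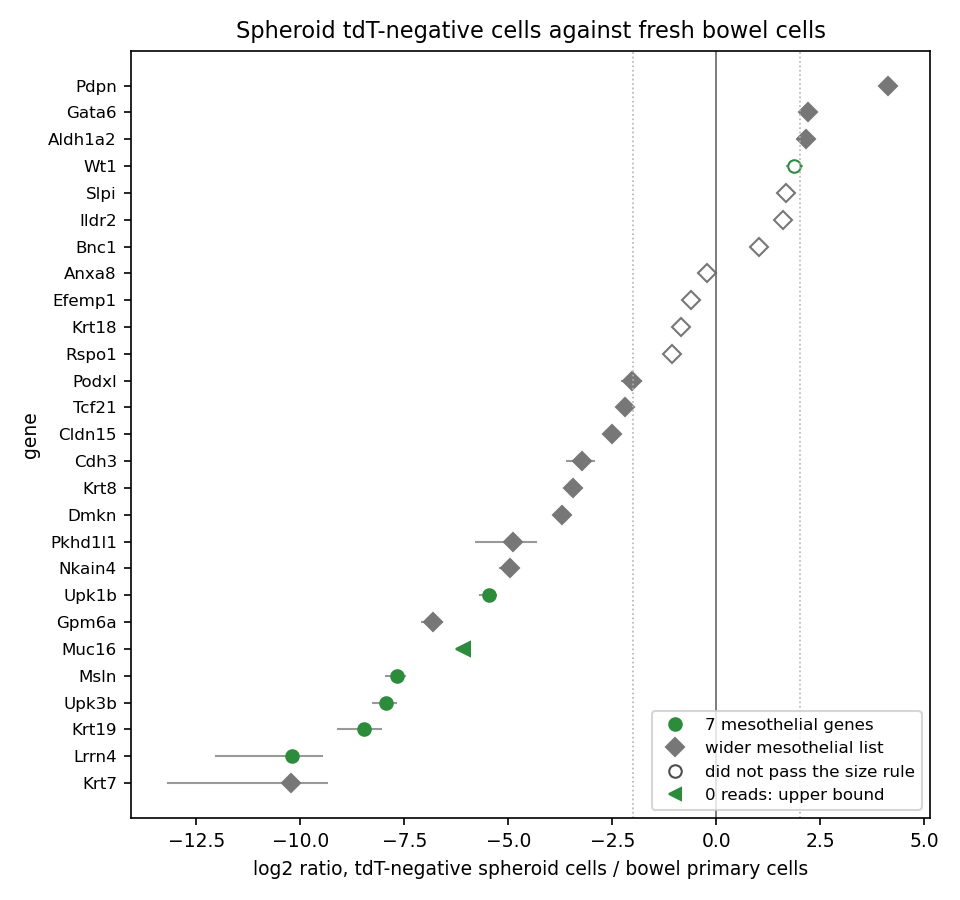
Log2 ratio of tdT-negative spheroid cells to bowel primary cells for the 7 mesothelial genes (circles) and the wider list of 20 (diamonds), with 95% counting intervals as bars and 1 library a group. Filled symbols passed the size rule, open ones did not, and dotted lines mark 4-fold. The left-pointing triangle is the bound for Muc16, with 0 reads held at 3 reads. Wt1, at 1.87, lies among the highest genes and 6 members lie below -5.

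Relatives of the members (15 genes of the same families) were mostly under 1 CPM, and 7 of them were measured in each comparison with bowel primary cells. In tdT-negative cells 3 of the 7 were called lower and 0 higher, beside 18% and 9.3% of all measured genes. The 3 were Lrrn1 (2.20 against 15.1 CPM) and the keratins Krt17 (0.247 against 13.1 CPM) and Krt20 (0.0309 against 5.39 CPM). Muc1, a membrane mucin of epithelia, did not pass, at 5.43 against 16.7 CPM. In M1 Muc1 was called lower, at 0.867 CPM, together with Krt17, Krt20 and Egr1, a zinc finger factor that binds sites like those of Wt1, and 0 were higher, beside 16.4% lower and 6.59% higher over all measured genes. In adipose primary cells 3 were lower (Lrrn1, Muc1 and Krt17) and 2 higher (Lrrn3 and Egr1), beside 11.4% and 7.1% of all measured genes. Mslnl, the relative of Msln, had at most 0.485 CPM in any library. Krt17 and Krt20 were thus called lower in both cultures, as Krt19 was, while Lrrn2, at 108 CPM in tdT-negative and 79.9 CPM in bowel primary cells, did not pass where Lrrn4 had 6 reads.

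Partners and reported targets of Wt1 (11 genes) showed no single direction. In tdT-negative against bowel primary cells 10 were measured, 3 of them called higher and 2 lower (median log2 ratio 0.56), beside 9.3% and 18% of all measured genes. Areg, a growth factor of the EGF family, was higher with 45.6 against 1.25 CPM (5.23), and Snai1, a repressor of epithelial genes, with 25.8 against 0.173 CPM (7.06). Aldh1a2 is the third. Basp1, a co-repressor of Wt1, was lower with 9.62 against 43.1 CPM, as was Podxl, a surface sialomucin, with 3.19 against 13.6 CPM. In M1 against bowel primary cells 3 of 10 were higher (Sall1, Snai1 and Areg) and 4 lower (Wtip, Basp1, Podxl and Aldh1a2), beside 6.59% and 16.4% of all measured genes. Between spheroid fractions 6 of 11 were lower and 1 higher (Sall1) in tdT-positive cells, beside 12.5% and 6.64%.

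Of 11 genes used to follow mesothelial-to-mesenchymal transition, 4 were called higher and 2 lower in tdT-negative than in bowel primary cells (median log2 ratio 0.04), beside 9.3% and 18% of all measured genes. Higher were Snai1, Fn1 (fibronectin, 22972 against 218 CPM, 6.79), Twist2 (14.1 against 0.919 CPM, 3.96) and Snai2 (46.4 against 10.5 CPM, 2.21). Lower were Cdh1, the cadherin of epithelia (2 against 163 reads), and Acta2, smooth muscle actin (21.3 against 7415 CPM, -8.38). Fibroblasts express most of these genes, and the fibroblast marker sum of the tdT-negative library, given above, was higher too, so mesothelial cells and fibroblasts cannot be told apart in it. In M1 against bowel primary cells 2 were higher (Snai1 and Cdh2) and 3 lower (Twist1, Cdh1 and Acta2) out of 11 measured, beside 6.59% and 16.4% of all measured genes. In tdT-positive spheroid against bowel primary cells 6 of 10 were higher (Snai1, Snai2, Zeb2, Cdh2, Vim and Fn1), beside 6.57% of all measured genes. There 3 were lower (Twist1, Cdh1 and Acta2), beside 20.4%, and the median log2 ratio was 2.31. Snai1, Snai2 and Fn1 were thus called higher than in bowel primary cells in both spheroid fractions. Between spheroid fractions 3 of 10 were higher (Zeb2, Cdh2 and Vim) and 4 lower (Snai1, Twist1, Twist2 and Fn1) in tdT-positive cells, beside 6.64% and 12.5%.

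Across the 7 libraries the members other than Wt1 followed each other closely. Pearson correlations of their log2(scaled CPM + 0.5) ranged from 0.783 to 0.994 between pairs, and pairs with Wt1 from 0.316 to 0.724. The 7 points share their libraries and depth, and the bowel primary library holds the top value of 6 members, so these values are a description. Of 12456 candidate genes at 10 CPM or more in a library, those most like the mean of the members were Krt14, a keratin (r = 0.989), Cacna2d3, a calcium channel subunit (0.988), and Popdc2 (0.982). Krt14 had 26.7 CPM in bowel primary cells, 3.58 in M1, 0.356 in tdT-negative cells and at most 0.0325 in the other 4 libraries. Genes most like Wt1 were Cxadr (0.994), Cbx6 (0.986) and Bnc1 (0.982). Cxadr, a junction protein that serves as a virus receptor, had 118 CPM in tdT-negative cells, 19.3 in bowel primary cells, 13.9 in M1 and at most 2.66 elsewhere, in the order seen for Wt1. Those most like Krt19 were Pilra, Fcgr3 and Tm6sf1 (0.996, 0.993 and 0.992), and Fcgr3, an antibody receptor of myeloid cells, had 333 CPM in bowel primary and 57.9 CPM in adipose primary cells. Msln was most like Rab3a (0.997), Upk3b like Krt14 (0.997), Upk1b like Zcchc12 (0.995), Lrrn4 like Cplx1 (0.996) and Muc16 like Oprk1 (0.998). Several of these (Rab3a, Cplx1, Oprk1) are known from neurons. The 7 neuron markers summed to 1182 CPM in bowel primary cells, 1238 in M1, 1050 in M2 and 713 in adipose neurospheres. They summed to 713 CPM in tdT-positive spheroid cells, 73.2 in tdT-negative cells and 55.4 in adipose primary cells, in another order than the members.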

How the data were processed

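RNA of sorted mouse cells was amplified as full-length cDNA (SMART-Seq v4) and made into Nextera XT libraries without molecular identifiers, per the labels' protocols. The authors deposited CPM values per Entrez gene; bcl2fastq 2.17, HISAT, featureCounts and mm10 are named in the submitters' processing notes, with further versions, settings, annotation and strandedness not given in the sources used here. The deposited CPM were turned back into reads, of which 100% were whole within 0.05 read. Symbols came from a RefSeq GRCm38.p6 table (25275 of 27179 identifiers matched) and exon lengths from GENCODE M21.

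Each group has 1 library, so the recovered reads allow no count test, and no p-value is given. Libraries were scaled by TMM (edgeR 4.0.16, R 4.3.3) over 16461 genes at 1 CPM or more in a library. Log2 ratios, which the size rule uses, have a prior count of 2. Printed folds, their intervals and percentages of bowel primary cells are taken without it, so at few reads they differ from the log2 ratios. Intervals are 95% exact conditional binomial, and genes with 0 reads are bounded with 3 reads. CPM printed are not TMM-scaled. The members and lists were chosen with earlier results of these data known. Named genes are the members, the listed genes, and the genes with the highest Pearson correlation with the mean of the members or with 1 member. Examples from lists were picked after their values were seen. The ratio, interval and size rule steps were tested on simulated reads of 1 comparison. Alternatives were scaling by total counts or DESeq2 1.42.0 size factors, TMM without acinar genes, no filter or 5 CPM, a prior count of 0.5, and 2-fold or 8-fold rules. Tables were made with pandas 2.3.3, scipy 1.17.1 and numpy 2.4.6 in Python 3.11.15, and plots with matplotlib 3.10.9.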

Additional observations from a re-analysis of the deposited data

Results flagged for a closer look

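The log2 ratio of Wt1 to bowel primary cells took opposite signs in cultured bowel cells of different kinds: it was 1.87 in tdT-negative spheroid cells, -0.73 in neurospheres M1 and -3.46 in tdT-positive spheroid cells. It is given here because the ratio was positive in the tdT-negative library and negative in the others. The tdT-negative cells differ from bowel primary cells in sort fraction as well as in culture. The difference between the 3 ratios was not tested, since each group has 1 library, and the 3 ratios share the bowel primary library.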

How the results depend on the processing

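Counts of members called higher or lower (16 counts, 8 alternatives each) were within 1.5 times the reported count in 125 of 128 cases. The reported count of members called higher was 0 in every comparison. The count called lower was also 0 where 0 members were measured. Counts of 0 that stayed 0 are among the 125, so these cases say little about the calls. With a filter at 5 CPM, 1 member was left and lower in tdT-positive than in tdT-negative spheroid cells, in place of 4, since fewer members were measured. Under the 2-fold rule 1 member, Wt1, was higher in tdT-negative than in bowel primary cells, as were 22.2% of all measured genes. With no filter 1 member, again Wt1, was lower in M2 than in tdT-positive spheroid cells, as were 4.51% of all genes. Of 180 log2 ratios of members recomputed, 174 moved by no more than their counting interval and 0 changed sign. The 6 others are ratios of M1 to bowel primary cells under scaling by total counts, which moved member ratios by -0.10 to 0.46. DESeq2 size factors moved them by -0.04 to 0.02, and leaving out the acinar genes by at most 0.002. Scaling by total counts moved the median of all genes by over 0.1 in 5 further comparisons: by 0.24 between spheroid fractions, 0.17 for tdT-positive spheroid against bowel primary cells, 0.11 for M2 against tdT-positive cells, 0.15 for adipose neurospheres against primary cells and -0.12 for adipose neurospheres against M2.

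No paired analysis was possible because each group has 1 library. Depth limits the values in the libraries with 53 reads of the members or fewer, where single genes rest on 0 to 36 reads. A prior count of 0.5 moved member ratios by -1.99 to 1.70 on the log2 scale, and by -1.99 for Muc16 where it had 0 reads against bowel primary cells.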
